A study of Mus musculus with 12 samples.

Results

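Open chromatin was compared between wild-type (WT) regulatory T cells (Treg) and WT conventional T cells (Tconv) of the mouse spleen. The comparison took 6 of the 12 ATAC-seq libraries of the study, 3 of WT Treg and 3 of WT Tconv, chosen by the cell type, genotype and replicate number in their titles. All animals carried the Foxp3-IRES-EGFP reporter, which puts green fluorescent protein (GFP) under the control of the Foxp3 locus. CD4+ T cells were first enriched with magnetic beads that remove other cells, and GFP-positive Treg and GFP-negative Tconv were then sorted by flow cytometry, with 100000 cells in each library. The other 6 libraries came from Treg and Tconv of reporter animals that lack an enhancer located 70 kb from Lrrc32 (KO), and were used here only to look again at regions chosen in the WT libraries. No treatment was given to any group, as far as the labels say, and the sources used here do not give the ages of the animals. The labels do not say that the libraries came from separate animals, so every p-value measures the spread between these libraries, which may be technical.

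Treg restrain immune responses, and Foxp3 is the transcription factor that defines their lineage, whereas Tconv are the CD4+ cells that help other immune cells once activated. ATAC-seq uses the Tn5 transposase, which inserts sequencing adapters into DNA that is not covered by nucleosomes, so that promoters and enhancers in use appear as peaks of reads. T cells of both kinds share most of their active promoters and enhancers, and a smaller number of sites differ between them. The libraries are of bulk cells, in which a site open in fewer cells and a site less open in each cell cannot be told apart. Since no gene annotation of the build of the peak lists (NCBIM37) was used here, regions are given by position, and the sorted identities were not checked against marker genes. The sample numbers inside the peak names differ from those the lists were deposited under in 10 of the 12 lists, and the sources used here do not say why. Each list was taken for the library it is recorded under, and every value for a library or group rests on that record.

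The number of peaks was 25401, 27605 and 22883 in the WT Treg lists and 24019, 24546 and 21269 in those of WT Tconv. The means of 25296 ± 2363 and 23278 ± 1760 (SD, n = 3 each) did not differ beyond the spread between libraries (exact permutation test, two-sided, p = 0.4). Peaks of each Treg list were wider than those of each Tconv list at the median, with 542, 550 and 528 bp against 520, 522 and 492 bp (exact permutation test, two-sided, p = 0.1, the smallest that 3 libraries against 3 can give). Peaks covered 15.6 ± 1.76 Mb in Treg and 13.6 ± 1.46 Mb in Tconv, and these ranges overlapped (exact permutation p = 0.3). The median fold enrichment over background in the authors' lists was 5.80 ± 0.204 in Treg and 5.84 ± 0.0884 in Tconv (SD, n = 3 each; exact permutation p = 0.8). These were among 7 measures of the lists compared in this way, and none could reach 0.05. Read depth is unknown, and each list started at a −log10 p of about 5 (5.01 to 5.05), so a site just under that limit reads as absent.

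The 145723 peaks of the 6 WT lists formed 35733 regions after merging. Those called in each of the 6 libraries, 15663 or 43.8%, are named shared regions. Regions called in each of the 3 Treg libraries but in none of Tconv are named Treg-only and numbered 1887, which is 5.28% of all regions. Those called in each of the 3 Tconv libraries but in none of Treg are named Tconv-only and numbered 973, or 2.72%. Treg-only regions made up 66.0% of these 2 classes together. With every list cut to its 21269 highest-ranked peaks, the length of the shortest list, the counts were 1303 and 1117 and that share was 53.8%. With stricter peaks, at a −log10 q of at least 5, they were 1299 and 783, a share of 62.4%. What part of the excess goes with the length of the lists was not tested. Without WT Tconv replicate 3, the shortest list, 1585 regions met the rule for Tconv-only. No region was tested singly, because Fisher's exact test cannot go below 0.1 with 3 libraries against 3.

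**Figure D1:**
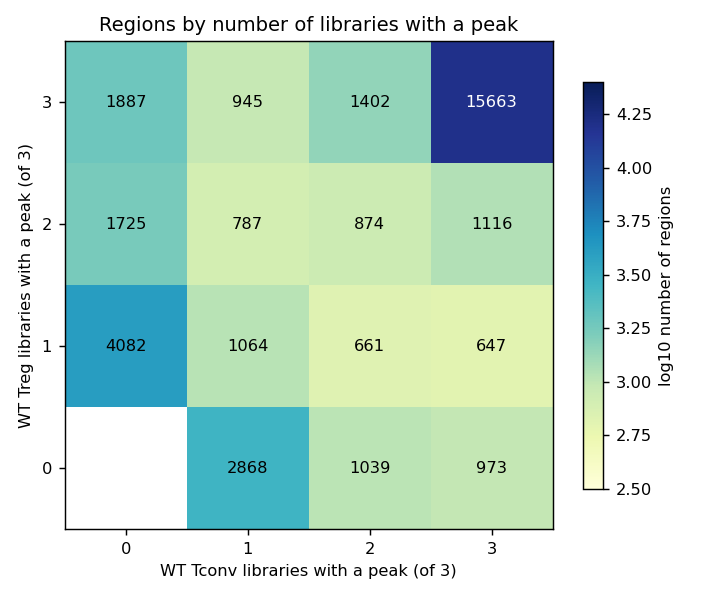
Number of regions by how many of the 3 WT Treg libraries (vertical axis) and how many of the 3 WT Tconv libraries (horizontal axis) have a peak, with colour on a log10 scale. The 15663 regions found in all 6 libraries fill the upper right corner, and the 1887 Treg-only and 973 Tconv-only regions fill the upper left and lower right corners.

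Many regions just missed these classes. On the Treg side, 945 were found in 3 Treg libraries and 1 of Tconv, and 1725 in 2 Treg libraries and none of Tconv. On the Tconv side, 647 were found in 3 Tconv libraries and 1 of Treg, and 1039 in 2 Tconv libraries and none of Treg. The strength of a region was described by its within-list percentile: all peaks of a list are ranked by the authors' −log10 p, and 100 is the strongest. Regions found in 3 libraries of one cell type and 1 of the other had median percentiles of 31.9 (Treg values) and 31.7 (Tconv values), close to those of Treg-only (31.1) and Tconv-only regions (33.1). Regions found in 2 libraries of a single cell type were weaker, at 17.5 and 18.4.

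Treg-only and Tconv-only regions were narrower and of lower rank than shared regions. Treg-only regions had a median width of 562 bp (quartiles 419 and 775.5 bp) and Tconv-only regions one of 500 bp (379 and 670 bp), against 920 bp (705 and 1200 bp) in shared regions and 599 bp over all regions. The middle 50% of Treg-only regions lay between percentiles 20.3 and 43.4, and those of Tconv-only regions between 22.2 and 46.2. Shared regions had median percentiles of 66.8 in Treg and 63.8 in Tconv. The classes were chosen by presence, which is not independent of rank and width, so these differences are descriptions. A minority of both classes ranked high: 184 Treg-only (9.75%) and 100 Tconv-only regions (10.3%) ranked at or above percentile 50 in each of their 3 libraries.

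How often a region was found in the other cell type rose steeply with its strength. Among the 248 regions with a peak in all 3 Treg libraries and a mean percentile under 10, 37.9% had no Tconv peak and 24.2% had a peak in all 3 Tconv libraries. Between percentiles 40 and 50 these shares were 10.9% and 72.1%, and between 80 and 90 they were 0.603% and 98.6%. Among the 2338 strongest Treg regions, at percentile 90 or above, a single one had no Tconv peak. Regions found in all 3 Tconv libraries gave the same order, from 21.0% without a Treg peak at the bottom to 0.191%, or 4 regions, at the top. A strong ATAC-seq site of either cell type was thus nearly always called in the other one as well.

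**Figure D2:**
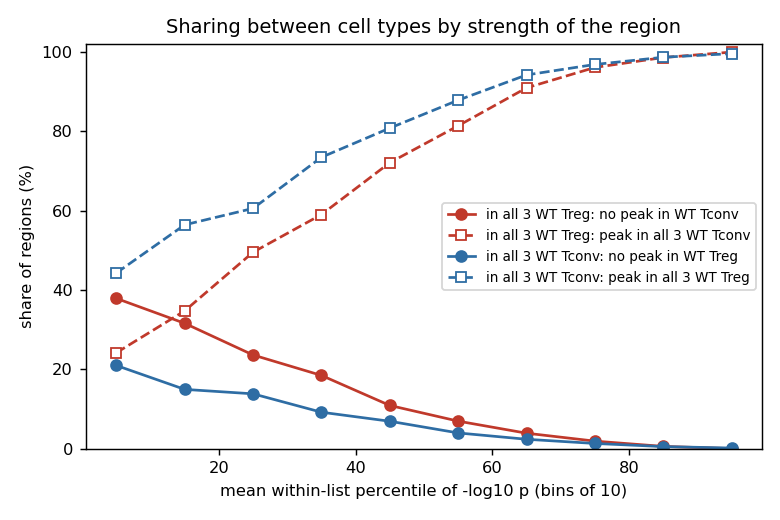
Share of regions (percent) without a peak in the other cell type (filled circles, solid lines) and with a peak in all 3 of its libraries (open squares, dashed lines), by mean within-list percentile of −log10 p in bins of 10, for regions found in all 3 WT Treg (red) or all 3 WT Tconv libraries (blue). Treg regions without a Tconv peak fall from 37.9% in the lowest bin to 0.0428% in the highest.

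The 10 Treg-only regions with the highest mean percentile are named A1 to A10 in that order. They were 582 to 1407 bp wide, and their mean fold enrichment in the authors' lists ran from 5.20 to 9.97. A1, at chr13:24578908-24579725, ranked at percentiles 81.8, 93.3 and 96.2 in Treg replicates 1, 2 and 3. It was the only Treg region at percentile 90 or above that lacked a peak in all WT Tconv libraries. The 3 KO Tconv libraries, in contrast, each had a peak there, at percentiles 36.9, 35.6 and 32.5, so A1 was Treg-only in the WT lists but not in the KO lists. Each KO Tconv list was longer than any WT Tconv list (24649 to 25283 against 21269 to 24546 peaks). Whether this bears on A1 was not tested.

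A2, at chr16:33606833-33607429, ranked at 86.4, 90.6 and 89.6, and its fold enrichment was 9.76 ± 0.786 (SD, n = 3). A3, at chr12:35705427-35706392, ranked at 90.7, 82.4 and 87.4. A4, at chr13:76718529-76719195, ranked at 90.3, 83.2 and 85.1. All 3 ranked above percentile 80 in each Treg list, and none had a peak in any of the 6 Tconv libraries of either genotype. A5, at chr13:111354009-111354759, ranked at 88.4, 86.2 and 83.3, and A8, at chr2:83540646-83541450, at 71.6, 87.5 and 89.4. These also lacked a peak in every KO Tconv library, which makes 5 such regions among the 10. A6, at chr7:81495144-81496550, was the widest of the 10, with percentiles of 77.3, 85.04 and 93.7. A7, at chr2:102796814-102797606, ranked at 83.0, 79.6 and 92.3. A6 had a peak in KO Tconv replicate 2 and A7 in KO Tconv replicate 1, both at low rank (percentiles 20.02 and 18.6). A9, at chr14:100860561-100861142, held the narrowest range of values, 81.5, 81.2 and 83.7, with the lowest mean fold enrichment of the set (5.20 ± 0.220). A10, at chr12:120476269-120477503, ranked at 84.2, 83.0 and 77.6. In KO, A9 had a peak in 2 Tconv libraries and A10 in 1. At each of the 10 regions KO Treg replicates 1 and 3 had a peak, with mean percentiles of the pair between 81.8 and 94.1. KO Treg replicate 2, a library with few peaks, lacked one at A2, A7 and A9.

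The 10 Tconv-only regions with the highest mean percentile are named B1 to B10. B1, at chr16:31181912-31182252, was a narrow region of 341 bp with percentiles of 97.0, 92.6 and 96.4 in Tconv replicates 1, 2 and 3. Its fold enrichment of 13.5 ± 1.03 (SD, n = 3) was the highest mean of any Treg-only or Tconv-only region. B2, at chr2:83856094-83856956, ranked at 94.0, 95.4 and 94.3, the tightest values of the set. B1 to B4 all had mean percentiles above 90, where Treg-only regions had a single one. B3, at chr2:117833674-117834183, ranked at 96.7, 95.1 and 86.7, and B4, at chr15:3259605-3260357, at 91.5, 95.1 and 89.1. B5, at chr2:84422256-84423069, ranked at 86.9, 87.3 and 95.8. B6, at chr6:28301012-28301658, ranked at 83.4, 89.3 and 91.6. Except for B9, each of the 10 stood at percentile 77 or above in all 3 libraries. B7, at chr9:31078679-31079246, ranked at 86.7, 84.3 and 89.9, and B8, at chr4:86367529-86368260, at 81.8, 89.1 and 84.4. B9, on chromosome 18, had a lower value in replicate 1 (74.7) than in replicates 2 and 3 (88.8 and 89.6). B10, at chr5:89551855-89552664, ranked at 77.4, 85.3 and 89.1 and lay within the longest group of Tconv-only regions described further on. All 10 had a peak in every KO Tconv library and in no KO Treg library, and thus the same pattern in both genotypes.

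**Figure D3:**
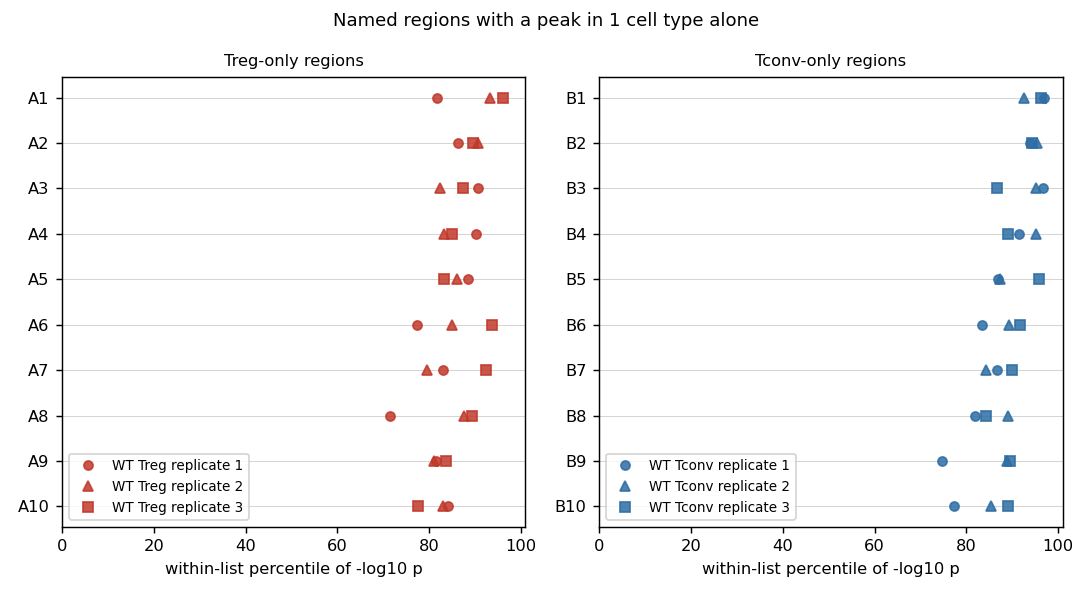
Within-list percentile of −log10 p (horizontal axis) in each of the 3 WT libraries that have the region, for the 10 strongest Treg-only regions A1 to A10 (left, red) and the 10 strongest Tconv-only regions B1 to B10 (right, blue), with 1 symbol per replicate. The lowest point is 71.6 on the left (A8, replicate 1) and 74.7 on the right (B9, replicate 1).

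Several of these regions lay near each other. On chromosome 2, A8 and B2 were 314.6 kb apart and B5 a further 565.3 kb away, so that a strong Treg-only and 2 strong Tconv-only regions fell within 1 Mb. All 20 named regions kept a difference of 3 libraries with stricter peaks (−log10 q of at least 5), with 21269 peaks in each list, and with coverage of 50% of the region as the condition for presence. Of all Treg-only regions, 49.1%, 57.1% and 62.7% did so in these settings, and of all Tconv-only regions 52.1%, 76.8% and 62.5%. The named regions had been chosen for their strength, which these settings reward.

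Treg-only and Tconv-only regions lay near their own class more often than near each other. They lay most often near shared regions, by far the largest class, but less often than shared regions did. Within 50 kb of 630 of the 1887 Treg-only regions (33.4%) lay another Treg-only region, and within 50 kb of 110 (5.83%) lay a Tconv-only region. Among Tconv-only regions, 228 (23.4%) had another Tconv-only region within 50 kb and 97 (9.97%) a Treg-only one. A shared region lay within 50 kb of 66.6% of Treg-only and 71.4% of Tconv-only regions. Shared regions, for comparison, had a Treg-only region within 50 kb in 14.4% of cases, a Tconv-only region in 8.73% and another shared region in 76.9%. These shares, chosen once the values were known, are descriptions without a test, and neighbouring regions are not independent of each other.

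Joined across gaps of up to 50 kb, Treg-only regions formed 68 groups of 3 or more, which held 242 regions, and Tconv-only regions formed 17, which held 60. The group with the most members was of Tconv-only regions, 10 between positions 89357495 and 89627989 of chromosome 5, a stretch of 270.5 kb with no shared region and no Treg-only region. Its strongest members were B10, a region from 89464925 to 89465872 at percentiles 76.0, 82.6 and 81.3, and one from 89473490 to 89474453 at 71.9, 76.6 and 78.4. A region from 89519014 to 89519649 followed at 81.0, 74.1 and 55.2. Weak members stood among the strong ones, the lowest being the region from 89417906 to 89418359, at 19.0, 16.7 and 8.03. Each of the 10 regions had a peak in all 3 KO Tconv libraries, and none had one in a KO Treg library. The stretch was thus called in 6 of 6 Tconv and 0 of 6 Treg lists at every member. In the WT lists this was set by the rule of the class, and KO Treg replicate 2 was a library with few peaks.

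Among Treg-only regions the group with the most members was on chromosome 7, 8 regions in 97.7 kb with no shared region between them. Their mean percentiles ran from 6.43 to 55.2, and 4 of the 8 had a peak in each of KO Treg replicates 1 and 3. The regions that start at 105661791, 105705321, 105710837 and 105734587 had no peak in any KO library. Of these, the one at 105710837 ranked at 59.1, 48.0 and 52.6 in WT Treg. The enhancer deleted in KO was not located on this build, so whether it falls in this group was not tested. A second group lay on chromosome 1 from 60925061 to 61042485. It held 7 Treg-only regions and 7 shared regions among 23 regions in all. One member stood well above the others, at 60970002 to 60970586, with percentiles of 82.1, 83.4 and 69.9, and it had a peak in all 3 KO Treg libraries and no KO Tconv library. The other 6 had mean percentiles from 17.4 to 43.6. Of these, 3 also had a peak in 2 KO Tconv libraries each, the regions that start at 60925061, 60967741 and 61041979. Another group, on chromosome 6 from 15605845 to 15796144, held 6 Treg-only and 7 shared regions. Its strongest member, at 15660317 to 15661306, ranked evenly at 68.2, 68.4 and 64.0. All 6 had a peak in KO Treg replicates 1 and 3 and none in KO Tconv, as in WT.

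Treg-only regions were spread over all autosomes and X, in unequal shares. They made up 7.84% of the regions on chromosome 14 and 7.39% on chromosome 16, but 2.24% on chromosome 11 and 1.90% on X. Tconv-only regions ranged from 1.63% on X to 3.76% on chromosome 6, leaving aside Y, which had 1 among 36 regions, and the mitochondrial sequence, which had none. Chromosome 11 was the only autosome on which Tconv-only regions (68) outnumbered Treg-only regions (48), and chromosome 17 had nearly equal numbers (55 Treg-only and 54 Tconv-only).

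In the 15663 shared regions, Treg and Tconv were compared by within-list percentile, which compares the rank of a region in its list and not its accessibility. At an adjusted p under 0.05 (limma on the logit of the percentile, Benjamini-Hochberg over all shared regions), 121 regions ranked higher in Treg, 0.773% of those tested. Another 109 ranked lower in Treg, 0.696%. The 121 had median percentiles of 70.0 in Treg and 18.5 in Tconv, and the 109 had 32.1 and 82.0. Differences of at least 30 percentiles were more common, with 349 regions higher and 270 lower in Treg. Percentiles of the groups did not overlap in 2646 regions with higher Treg values (16.9%) and in 1264 with lower ones (8.07%). The balance of these counts moved with the ranking used. Over all shared regions the median difference was 2.19 percentiles and not 0, and whether this shift sets the balance was not tested. Ranked again among the shared regions alone, with a median difference of 0.470, 68 ranked higher and 113 lower in Treg at the same limma threshold, which moves the share that ranked higher from 52.6% to 37.6%. All 121 and all 109 regions kept their direction there, and 64 and 81 of them stayed past the threshold. Without WT Treg replicate 1, 2 or 3 the calls fell to 16, 15 and 16 higher and 22, 31 and 23 lower. Without WT Tconv replicate 1, 2 or 3 they were 117, 68 and 108 higher and 67, 23 and 49 lower. Stricter peaks left 11 higher and 13 lower, equal numbers of peaks 33 and 65, and ranks of the fold enrichment 21 and 19. Percentiles without the logit gave 108 higher and 55 lower, among them 73 of the 121 and 40 of the 109. Of the called regions, 11 higher and 12 lower passed with each of the 6 libraries left out in turn.

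The 10 shared regions called higher in Treg with the largest difference in mean percentile are named H1 to H10. H1, at chr1:155570235-155571144, ranked at 92.8, 93.0 and 93.0 in Treg and at 31.8, 2.36 and 4.86 in Tconv. Its Treg values are nearly equal and its Tconv values scatter, with a logit difference of 5.06 ± 0.634 (SE) and a limma adjusted p of 0.00981. H4, at chr12:92906445-92907602, ranked at 80.8, 81.4 and 77.4 in Treg against 8.55, 13.9 and 4.14 in Tconv (limma adjusted p = 0.00451). In the authors' lists, its fold enrichment was 7.39 ± 0.322 in Treg and 4.57 ± 0.121 in Tconv (SD, n = 3 each). H8, at chr7:113379724-113380887, ranked at 82.2, 87.4 and 81.6 in Treg against 13.4, 21.9 and 19.5 in Tconv (limma adjusted p = 0.00501). H9, at chr10:7545880-7546314, was the narrowest of the 10 and ranked at 69.4, 71.7 and 82.9 against 14.1, 4.81 and 14.6. H1, H4, H8 and H9 stayed past the threshold with any one library left out.

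The other 6 higher regions lost the call in at least 2 of those 6 fits. H2, at chr14:71198172-71199047, had the highest Treg values, 93.7, 94.0 and 98.1, against 27.6, 31.7 and 1.70 in Tconv. H3, at chr12:35674752-35675593, ranked at 92.7, 90.0 and 90.7 against 1.90, 34.8 and 22.2, and ended 29.8 kb before the Treg-only region A3. The pair thus joined a site with weak Tconv peaks to one with none. H5, at chr11:26540255-26540857, ranked at 87.95, 84.98 and 91.2 against 28.2, 20.2 and 2.86. H6, at chr10:20898149-20899024, ranked at 66.1, 78.3 and 85.4 against 12.4, 2.35 and 14.0. H7, at chr13:96489533-96490158, ranked at 80.9, 78.8 and 73.6 against 28.1, 1.33 and 3.87. H10, at chr5:93562250-93562987, ranked at 73.4, 78.8 and 75.04 against 1.31, 12.6 and 27.0. The Tconv values scattered widely in several regions, with SDs of 16.3 percentiles in H1, 16.3 in H2, 16.6 in H3, 14.8 in H7, 12.9 in H5 and 12.9 in H10 (n = 3 each), against 4.86 in H4 and 4.41 in H8. Ranked again among shared regions, H3, H7 and H10 had limma adjusted p-values of 0.0573, 0.0584 and 0.0755 and were no longer called.

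The 10 called lower in Treg are named W1 to W10, again by the size of the difference. W1, at chr6:67297857-67298748, ranked at 10.5, 21.3 and 27.0 in Treg and at 96.3, 90.9 and 97.9 in Tconv (limma adjusted p = 0.00451). The site stood above percentile 90 in each Tconv list and under 30 in each Treg list. Its fold enrichment was 4.96 ± 0.529 in Treg and 8.56 ± 1.27 in Tconv (SD, n = 3 each). W10, at chr1:66598593-66599863, ranked at 43.0, 30.7 and 48.6 in Treg and at 99.4, 99.2 and 99.4 in Tconv, with a logit difference of −5.36 ± 0.337 (SE) and the smallest limma adjusted p of all shared regions, 0.000264. Its Tconv values were nearly equal, all above percentile 99. W6, at chr6:103514774-103515435, ranked at 28.3, 36.03 and 23.96 against 92.6, 89.3 and 90.8.

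W3, at chr11:75132093-75132895, ranked at 28.6, 20.3 and 10.7 against 83.3, 81.8 and 91.6. W5, at chr5:90329959-90330664, ranked at 20.5, 12.4 and 20.1 against 83.8, 79.7 and 75.4, and lay 777.3 kb beyond B10. W9, at chr2:165278581-165279252, ranked at 10.9, 7.24 and 11.5 against 65.9, 75.7 and 64.5. Together with W2 on chromosome 18 (14.2, 17.5 and 10.7 against 77.0, 87.0 and 87.5), the 7 regions W1, W2, W3, W5, W6, W9 and W10 stayed past the threshold with any one library left out. W4, at chr15:85063212-85064297, ranked at 41.7, 16.3 and 6.22 against 84.1, 88.1 and 87.2. W7, at chr4:10696677-10697843, ranked at 43.7, 23.0 and 44.8 against 95.2, 95.8 and 99.6. W8, at chr7:16949553-16950240, ranked at 12.5, 17.6 and 16.5 against 84.5, 81.9 and 58.3. W4 scattered in Treg and W8 in Tconv, and W4, W7 and W8 lost the call in at least 3 of those fits. All 10 passed when ranked again among shared regions.

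**Figure D4:**
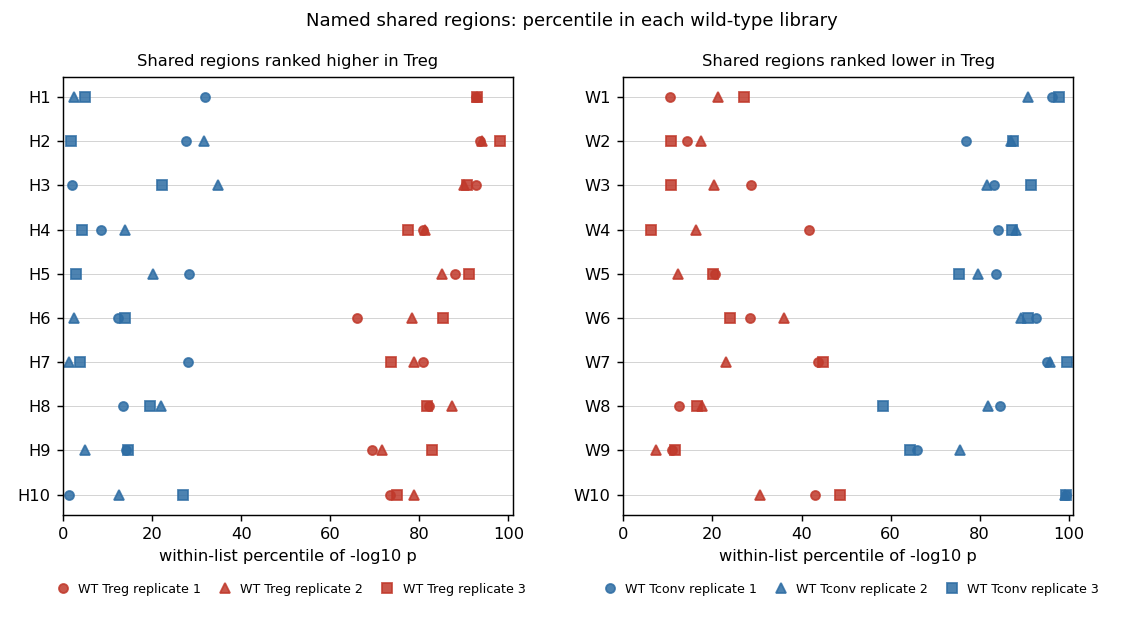
Within-list percentile of −log10 p (horizontal axis) in each WT library for the shared regions H1 to H10, called higher in Treg (left), and W1 to W10, called lower in Treg (right), with Treg in red, Tconv in blue and 1 symbol per replicate. In none of the 20 regions do the red and blue points overlap, by the rule that named them.

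Calls among shared regions were also counted by their distance to Treg-only and Tconv-only regions. Of the 476 shared regions with a Treg-only but no Tconv-only region within 10 kb, 9 were called higher in Treg (1.89%) and 5 lower (1.05%). Of the 309 with only a Tconv-only region within 10 kb, 4 were called higher (1.29%) and 11 lower (3.56%). None of the 10 shared regions near both was called. Over all shared regions the shares are 0.773% and 0.696%. Percentiles that did not overlap between the groups and were lower in Treg made up 7.35% near Treg-only regions, 16.2% near Tconv-only regions and 8.07% over all. Those higher in Treg made up 19.12%, 17.15% and 16.89%, so this share was not reduced near Tconv-only regions. The counts of calls are small and were not tested, and the distance was set with the values known.

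As whole sets, the peaks of a cell type were more alike than those of different cell types. The Jaccard index, which divides the bases covered by both of a pair of peak sets by the bases covered by either, was 0.628 to 0.660 between Treg libraries and 0.620 to 0.658 between Tconv libraries. Between a Treg and a Tconv library it was 0.524 to 0.580, so no pair of different cell types was as alike as any pair of the same one. The mean within groups exceeded that between groups by 0.0790 (exact permutation test over 20 labelings, one-sided, p = 0.1, the smallest this design can give).

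The KO libraries, which had no part in choosing the regions, also differed by cell type at them. One of them, KO Treg replicate 2, held 5262 peaks against 24649 to 25400 in the other 5. Treg-only regions had a peak in KO Treg replicates 1, 2 and 3 in 86.0%, 3.55% and 87.7% of cases, and in the KO Tconv replicates in 16.1%, 17.8% and 15.1%. KO Treg thus exceeded KO Tconv by 42.8 percentage points (exact permutation test, two-sided, p = 0.4), and by 70.5 points without KO Treg replicate 2 (exact permutation p = 0.1, the smallest possible). Tconv-only regions had a peak in 84.2%, 77.2% and 83.0% of cases in KO Tconv, and in 6.06%, 0.514% and 8.02% in KO Treg. That difference was −76.6 points, and −74.4 without KO Treg replicate 2 (exact permutation p = 0.1 for each). Shared regions had a peak in 97.4% and 98.1% of cases in KO Treg replicates 1 and 3 and in 98.8% to 99.1% in KO Tconv, against 28.5% in KO Treg replicate 2.

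**Figure D5:**
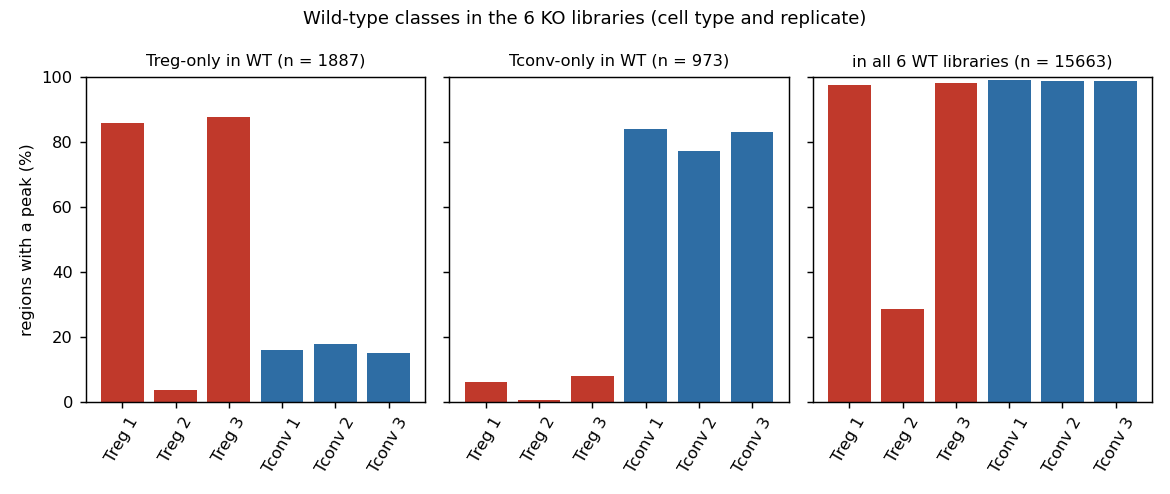
Share of regions (percent) with a peak in each of the 6 KO libraries, for regions that were Treg-only (left), Tconv-only (middle) or found in all 6 libraries (right) in WT, with Treg bars in red and Tconv bars in blue. Treg-only regions were found in 86.0% and 87.7% by KO Treg replicates 1 and 3 and in at most 17.8% by KO Tconv libraries, and KO Treg replicate 2 was low in every class.

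Leaving KO Treg replicate 2 aside, 1035 Treg-only regions (54.9%) had a peak in both other KO Treg libraries and in no KO Tconv library, and 447 had both and also a KO Tconv peak. In these KO Treg libraries, 92 had no peak. With KO Treg replicate 2 included, 40 (2.12%) had a peak in all KO Treg and no KO Tconv library. Of the Tconv-only regions, 538 (55.3%) had a peak in all 3 KO Tconv libraries and in neither of KO Treg replicates 1 and 3, 77 also had a peak in one of those, and 33 had none in KO Tconv. With KO Treg replicate 2 included, 535 (55.0%) had a peak in all KO Tconv and no KO Treg library. How often a region was found again followed its strength in WT. Treg-only regions at percentile 60 or above were found in KO Treg replicates 1 and 3 in 99.4% and 100% of cases, and those under 20 in 72.7% and 77.1%. KO Tconv libraries found 13.3% to 22.8% of the strong and 13.1% to 16.8% of the weak Treg-only regions. Tconv-only regions at 60 or above were found in KO Tconv in 99.0% to 100% of cases, and those under 20 in 62.4% to 71.3%.

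Most of the called shared regions kept the direction of their ranks in KO. Of the 121 regions higher in WT Treg, 100 had a peak in all KO lists other than KO Treg replicate 2, and in 96 of these KO Treg ranked above KO Tconv, by a median of 27.7 percentiles. Of the 109 lower in WT Treg, 77 had those peaks, and KO Treg ranked below KO Tconv in all 77, by a median of −30.3. Over all 14740 shared regions with those peaks, KO Treg ranked higher in 49.9%. In the 4454 shared regions with a peak in all 6 KO lists, KO Treg ranked higher in 12.6%, with a median difference of −7.77 percentiles. Of the 121 regions 35 were among these and KO Treg ranked above in 31, and of the 109 there were 10, all of them with KO Treg below. A limma fit of the 5 KO libraries called 18 regions higher and 43 lower in Treg. Of these, 12 were among the 121 (9.92% of the WT and 66.7% of the KO calls) and 20 among the 109 (18.3% and 46.5%). With KO Treg replicate 2 included, limma called 0 of the 4454 regions, with 19 higher and 77 lower at an unadjusted p under 0.05.

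Single regions differed in how far they did so. H5 ranked at 93.9 and 95.4 in KO Treg replicates 1 and 3 and at 11.1, 16.5 and 16.0 in KO Tconv, close to its WT values, but at 34.2 in KO Treg replicate 2. H1 ranked at 96.0 and 95.8 in the same KO Treg libraries and at 77.4 in KO Treg replicate 2, but at 16.4, 64.1 and 37.5 in KO Tconv, where its values spread widely. W10 ranked at 12.4 and 45.2 in KO Treg replicates 1 and 3, had no peak in KO Treg replicate 2, and ranked at 98.9, 98.4 and 97.2 in KO Tconv. W9 had no peak in any KO Treg library, and its KO Tconv percentiles of 43.7, 8.65 and 11.3 were all below its WT Tconv values. The difference between genotypes at these regions was not tested.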

How the data were processed

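The 12 deposited peak lists, 1 for each library, were assigned to libraries as the deposit records them and placed in groups by the sample titles. Every peak in the deposited lists comes with 4 values of the authors: its fold ratio against background, its −log10 p, its −log10 q and a score. These describe a peak within its own list. Per the submitters' processing notes, the build is NCBIM37 and the tools include Trim Galore 0.4.4, Bowtie2, DESeq2, DiffBind and MACS2, whose roles are not stated. The sources used here give neither their settings nor a control input nor any shift of cut sites. No read counts were used, so depth is unknown, and the number of peaks stands in for it.

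Overlapping or touching peaks of the 6 WT lists were merged, and 1 bp of overlap counted as presence. A region took the highest percentile of its peaks in a list. Coordinates are 1-based. Shared regions were tested with limma 3.58.1 in R 4.3.3 on the logit of the percentile, with Benjamini-Hochberg adjustment over all of them and a threshold of 0.05. Exact permutation tests went through all labelings. The code for the presence calls and the limma step was run on simulated data with planted differences, which checks the code and not the results. Other work used Python 3.11.15 with the packages numpy 2.4.6, scipy 1.17.1, pandas 2.3.3 and matplotlib 3.10.9.

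Named regions are, per direction, the 10 with the highest mean percentile of those in 1 cell type, and the 10 with the largest percentile difference among called shared regions whose percentiles do not overlap. Members, lists and rules were chosen with earlier results of these data known, and groups of neighbouring regions, strength bins and KO ranks after seeing them here. The alternatives tried were equal numbers of peaks, stricter peaks, 50% coverage, autosomes alone, gaps of up to 200 bp joined, other scales and ranked columns, a replicate block and leaving out each library. The gene table at hand, with 49997 genes, is of another build (GRCm38.p6), so gene names, gene lists, marker checks and motifs were not used here.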

Additional observations from a re-analysis of the deposited data

How the results depend on the processing

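Depth is unknown, and a peak missed near the limit of −log10 p reads as absent. Of 98 alternatives to 8 results, 75 kept the direction and, for counts, stayed within 1.5 times. Another 23 counts moved further and none reversed, although a count of regions has no direction to reverse. A count that stayed need not hold the same regions. At 50% coverage, 32 of the 121 and 37 of the 109 called shared regions were still tested, and all of these kept the call. Their percentiles are unchanged in that setting, so keeping the call was nearly certain beforehand and says little about stability. Tests of 3 against 3 cannot pass 0.05, so their p-values say nothing about stability. The cause was not tested, except that fewer libraries or a looser rule admit more regions by construction. At least 2 of 3 against 0 of 3 libraries gave 3612 Treg-only and 2012 Tconv-only regions.

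Shared regions called higher and lower in Treg by limma numbered 11 and 13 with stricter peaks, 33 and 65 with equal numbers of peaks and 21 and 19 with fold enrichment ranked. Peaks covering 50% of the region gave 78 higher, ranking again among shared regions 68 higher, percentiles without logit 55 lower, and regions in at least 2 of 3 libraries of each type 71 lower. Leaving out each library gave 15 to 117 higher (lowest without WT Treg replicate 2) and 22 to 67 lower (lowest without WT Treg replicate 1). Tconv-only regions numbered 1058 to 1585, the highest without WT Tconv replicate 3, and Treg-only regions 2050 to 2822, the highest without WT Treg replicate 3. Treg-only regions made up 62.4% of Treg-only and Tconv-only regions together with stricter peaks, and 68.1% at 50% coverage. For the 40 named regions, 90 of 105 alternatives stayed the same, 15 moved and 0 reversed. A1 to A10 and B1 to B10 stayed the same with stricter peaks, equal numbers of peaks and 50% coverage, the settings compared for named regions. Stricter peaks and equal numbers only remove weak peaks, so these strong regions could hardly change there. Some named shared regions were not compared in some settings. Stricter peaks left 7 of H1 to H10 and 7 of W1 to W10, with 1 and 6 of these moved, each to a larger difference. Weak peaks removed in that setting also dropped out of the means, so some of these differences rest on fewer libraries. At 50% coverage 6 and 5 were left, with 1 moved in each set. A library that failed the coverage rule dropped out of these means. H6 alone kept its difference of 67 there, and the other differences rest on fewer libraries, some on 1 of a group.

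The numbers of the replicates were not taken as pairs, since the labels do not say whether equal numbers mark a shared animal or day. Deviations of libraries with the same number correlated at 0.104, 0.0309 and 0.109. With a replicate block, 100 shared regions were called higher and 93 lower, and the exact permutation p of the Jaccard separation and of the number of peaks was 0.25, the smallest 3 pairs allow. Every library correlated best with the one of its own number, a hint from the data and not the design.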

Other observations

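Regions found in a single WT library numbered 6950, or 19.5% of all regions, and ranged from 557 in Tconv replicate 3 to 2125 in Treg replicate 2. They were narrow, with median widths of 207 to 237 bp in the 6 libraries, and of low rank, with median percentiles of 8.04 to 10.7. Between 48.3% and 51.1% of them had a peak in at least one KO library other than KO Treg replicate 2. The strongest was at chr8:86725628-86725923 in Treg replicate 2, at percentile 97.9 with a fold enrichment of 1.62 in the authors' lists, and had no peak in any KO library.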
